A study of Mus musculus with 18 samples.

Results

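Cell cycle and DNA replication genes were read in mouse tail tendon fibroblasts (TFs) by the gene names of the deposited table. All 45 listed genes were found among its 55491 rows, and all 45 passed the filter on low counts. They were 5 G1 cyclins and their kinases, 20 genes of the G1/S transition and DNA replication, 15 genes of G2 and mitosis (G2/M) and 5 inhibitors of cyclin-dependent kinases (CDKs). In a dividing cell, D-type cyclins with CDK4 or CDK6 and then cyclin E with CDK2 inactivate the RB protein, which frees E2F factors to switch on the replication genes. Later, cyclin A and cyclin B with CDK1 drive mitosis. The genes of that phase are repressed in resting cells by the DREAM complex and switched on in dividing cells by B-MYB with the MuvB core and by FOXM1, through CHR elements, while NF-Y binds CCAAT boxes in the same promoters. Cultured fibroblasts leave and re-enter this cycle with growth factors, density and oxygen, and CDK inhibitors hold them outside it.

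Poly-A RNA was sequenced from 18 libraries, 3 in each of 6 groups, after 4 days of culture in 20% or 1% O2. Ctrl TFs came from Cre-negative mice, which the labels call wild type and the methods describe as floxed at *Hif1a*. TFs labelled cKO came from *Hif1a* fl/fl mice carrying Scx-Cre, a constitutive driver active in the tendon lineage, so that any tail cell outside that lineage keeps the gene. The other 2 groups were Ctrl TFs treated with Cre gesicles, vesicles that deliver the recombinase, in 20% or 1% O2. All groups shared one medium, with 10% serum in the labels and 1% in the methods, and which of these holds is not settled by the sources used here. TFs crawled out of collagen gels and came from male and female mice of 4 to 6 months on a mixed C57BL6J/129S1 background.

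Library totals ran from 26967440 to 51806453 counts in 17 libraries and stood at 6857558 in cKO 1% O2 replicate 1. Levels are given as CPM, read counts scaled to the library total and normalized by edgeR's TMM method, listed for replicates 1, 2 and 3 in that order. *Hif1a* itself lay between 294 and 504 CPM and was not lower in the TFs labelled cKO than in Ctrl TFs (log2 fold change 0.11 in 20% O2, edgeR adjusted p = 0.757), so directions are given for TFs labelled cKO. Counts over the whole gene do not single out the floxed exon. By qPCR, after a longer culture, the paper reports reduced *Hif1a* in tail TFs of cKO mice. Cre counts, at most 5 per library, were found in 5 of the 6 libraries labelled cKO and in 0 of the 12 others. By *Xist*, replicate 1 was male and replicates 2 and 3 female in Ctrl and gesicle-treated TFs, with the opposite pattern in cKO, and *Xist* as a covariate is among the alternatives. The library cKO 20% O2 replicate 2 stood apart, since 1373 genes in place of 333 were called for 1% against 20% O2 in cKO when it was left out. All 9 tendon fibroblast markers had medians above 1 CPM over the 18 libraries. So did 4 of 4 pericyte and smooth muscle markers, 2 of 7 immune markers, 2 of 6 skeletal muscle markers, 2 of 5 chondrocyte and osteoblast markers and 1 of 4 Schwann and neural markers, against 0 of 5 endothelial, 0 of 5 epithelial and 0 of 3 erythroid markers. Among those present were *Acta1* (9.32 to 41.8 CPM), *Lyz2* (8.57 to 22.2) and *Sox9* (20.6 to 50.8), while *Cd3e*, *Pax7*, *Ckm*, *Ibsp* and *Alas2* were at 0 counts in all 18 libraries.

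Per kilobase of exon, averaged over the 18 libraries, the members ran from 0.418 CPM per kb for *Cenpf*, a kinetochore protein, to 188 for *Cdkn1a*, the p21 inhibitor. *Cdkn1a* was followed by *Cdkn2b* (p15, an inhibitor of CDK4 and CDK6) at 125, *Ccnd2* (cyclin D2) at 119 and *Rrm2* at 107. *Rrm2* encodes the small subunit of ribonucleotide reductase, which makes the deoxyribonucleotides for DNA synthesis. Its partner *Rrm1*, the large subunit, stood at 13.8 CPM per kb. The median was 48.6 for the G1 cyclins and their kinases, 5.53 for the G1/S genes, 4.35 for the G2/M genes and 9.10 for the inhibitors. The highest G2/M gene was *Cdc20*, an activator of the anaphase-promoting complex, at 17.6 CPM per kb.

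G2/M genes varied most between libraries and moved together. The highest of the 18 levels was 3.34 times the lowest for *Cdk1*, the mitotic kinase, and 10.6 times for *Mki67*, the proliferation marker Ki-67, with a median of 5.48 over the 15 genes. The library Ctrl 20% O2 with gesicles, replicate 2, held the highest level of all 15, and Ctrl 1% O2 with gesicles, replicate 3, the lowest level of 11. G1/S genes spanned less, with a median of 2.61 times over 20 genes, from 1.61 for *E2f1* to 13.7 for *E2f8*. *E2f8* is a repressor E2F, whereas *E2f1* is an activator.

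Within the Ctrl groups, the spread followed the replicate number. Replicate 3 held the lowest level of 15 of 15 G2/M genes in Ctrl 20% O2, Ctrl 1% O2 and gesicle-treated Ctrl 1% O2, and of 14 of 15 in gesicle-treated Ctrl 20% O2. Replicate 2 held the highest level of 15 of 15 in both 20% O2 groups of Ctrl cells, treated or not. In 1% O2, replicate 1 was the highest for 12 of 15 in Ctrl and for 15 of 15 in gesicle-treated Ctrl. The mean log2 level of the G2/M genes, each centred on its mean over the 18 libraries, had an SD between replicates of 0.64 in Ctrl 20% O2 and 0.69 in Ctrl 1% O2, but of 0.22 in cKO 20% O2 and 0.10 in cKO 1% O2 (n = 3 each). The plot of class means by library shows this spread for each class.

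**Figure D1:**
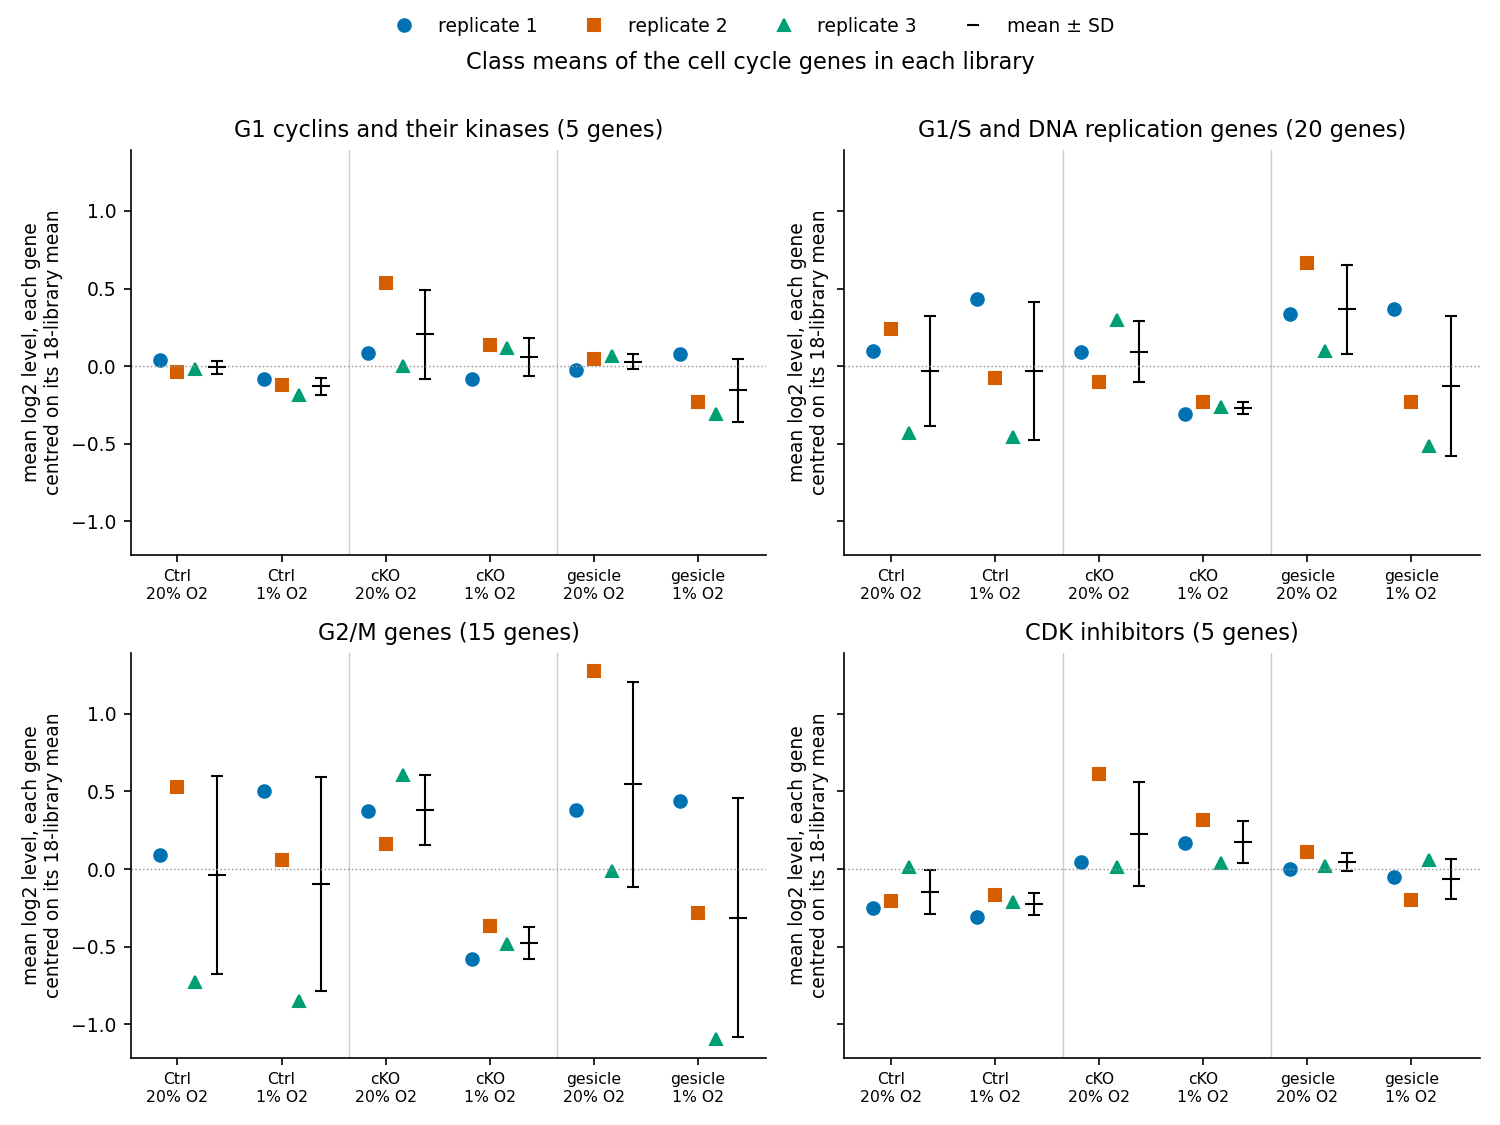
Each point is a library, with the y axis the mean log2 level (log2 of CPM plus 0.5) over the genes of a class after centring each gene on its 18-library mean, and the black bar gives mean ± SD over 3 replicates. The 3 libraries of cKO 1% O2 lie between -0.58 and -0.37 in the G2/M panel and those of cKO 20% O2 between 0.16 and 0.61, whereas the Ctrl groups overlap.

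The first question was how the members responded to low oxygen. In Ctrl TFs, G2/M genes did not move in one direction: 9 of 15 had a log2 fold change below 0 in 1% against 20% O2, against 49.9% of the 15850 genes tested, and the median was -0.048. The class mean was 0.41 higher in 1% O2 for replicate 1, 0.47 lower for replicate 2 and 0.12 lower for replicate 3 on the log2 scale. For the G1/S genes the median was 0.04. edgeR called 0 of the 45 members, against 1.88% of all genes, and DESeq2 also called 0. At an unadjusted p under 0.05, 1 member was higher, against 9.4% of all genes, and 2 were lower, against 6.66%. The first was *E2f1* (0.45, SE 0.11, edgeR adjusted p = 0.0641), and the others *Rrm1* (-0.37) and *Rrm2* (-0.47). Hypoxia genes responded in the same libraries, with 6 of the 8 on a check list called, among them *Ndufa4l2*, a mitochondrial HIF target, at a log2 fold change of 5.42, *Ankrd37* at 2.85 and *Pdk1* at 2.64. In TFs labelled cKO and in gesicle-treated Ctrl TFs, 6 of the 8 were called as well. The list medians were 2.38 in Ctrl, 2.15 in cKO and 2.04 with gesicles.

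In TFs labelled cKO, the G2/M genes were lower in 1% O2 as a class. All 15 log2 fold changes were below 0, against 53.1% of the genes tested, with a median of -1.04 (-0.029 over all genes tested). Because these genes moved together between libraries, their 15 signs are not independent, here and in the comparisons below. The class mean was lower by 0.95, 0.53 and 1.09 in replicates 1, 2 and 3. For 12 of the 15, all 3 libraries in 1% O2 lay below all 3 in 20% O2, against 10.2% of all genes. The exceptions were *Cdk1*, *Aurkb* and *Bub1*. *Aurkb* encodes the kinase of the chromosomal passenger complex and *Bub1* a spindle checkpoint kinase. The largest differences of the class were those of *Foxm1*, the transcription factor of the mitotic genes (-1.40, SE 0.43), *Cdc20* (-1.23, SE 0.34) and *Mki67* (-1.20, SE 0.42). None passed the adjusted threshold: edgeR called 0 of the 45 members, against 2.1% of all genes, and the lowest adjusted p was that of *Cdc20* (0.0831). At an unadjusted p under 0.05, 15 members were lower, against 10.1% of all genes, and 1 was higher, against 9.71%. Of the lower ones, 10 were G2/M genes. DESeq2 called 9 members, *Aurka*, *Ccnb2*, *Cdc20*, *Cenpf*, *E2f8*, *Foxm1*, *Mki67* and *Top2a* lower and *Cdkn1b* higher. It called 888 of 28539 genes in all, against 333 of 15850 by edgeR. With the replicate number as a block, edgeR called 4 members, all lower, and 444 genes in all. They were *Aurka*, *Cdc20*, *E2f8* and *Mki67*. *Cdkn1b* measured 7.1, 3.7 and 3.4 CPM in cKO 1% O2, the first in the library with the fewest counts. Without cKO 20% O2 replicate 2, edgeR called 3, namely *E2f7*, *E2f8* and *Foxm1*, and without any other library of this arm it called 0. In bulk libraries, fewer cells in a phase and less RNA per cell cannot be told apart.

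Levels in single libraries show how even this was. *Top2a*, the topoisomerase that untangles sister chromatids, measured 39.1, 22.2 and 39.6 CPM in cKO 20% O2 and 10.4, 17.02 and 17.06 in cKO 1% O2. In Ctrl TFs it measured 30.7, 37.0 and 15.6 in 20% O2 and 37.0, 27.2 and 13.4 in 1% O2. The cKO groups did not overlap, and the 2 Ctrl groups covered nearly the same range. *E2f8* measured 6.1, 3.3 and 8.9 CPM in cKO 20% O2 and 2.1, 1.8 and 2.0 in cKO 1% O2, again without overlap (a difference of -1.63 on the log2 scale with SE 0.52, and an edgeR adjusted p of 0.123).

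In gesicle-treated Ctrl TFs, the G2/M median was -0.87 for 1% against 20% O2 (-0.02 over all genes tested), with 15 of 15 below 0, against 52.2% of all genes. The 3 replicates differed from each other: the class mean was 0.06 higher in 1% O2 for replicate 1 and lower by 1.56 and 1.08 for replicates 2 and 3. Only *Cdc20* among the 15 had groups without overlap, against 11% of all genes. edgeR called 0 of 45 members, against 2.41% of all genes, while at an unadjusted p under 0.05 there were 10 lower, against 8.19% of all genes, and 1 higher, against 9.15%. DESeq2 called 2 members, *Ccnb2* and *Cdc20*, and 731 of 29738 genes in all. Without gesicle-treated Ctrl 1% O2 replicate 1, edgeR called 1, *Rrm1*. With the replicate number as a block it called 4 members, *Ccnb2*, *Cdc20*, *Mcm7* and *Rrm1*, all lower, and 774 genes in all.

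**Figure D2:**
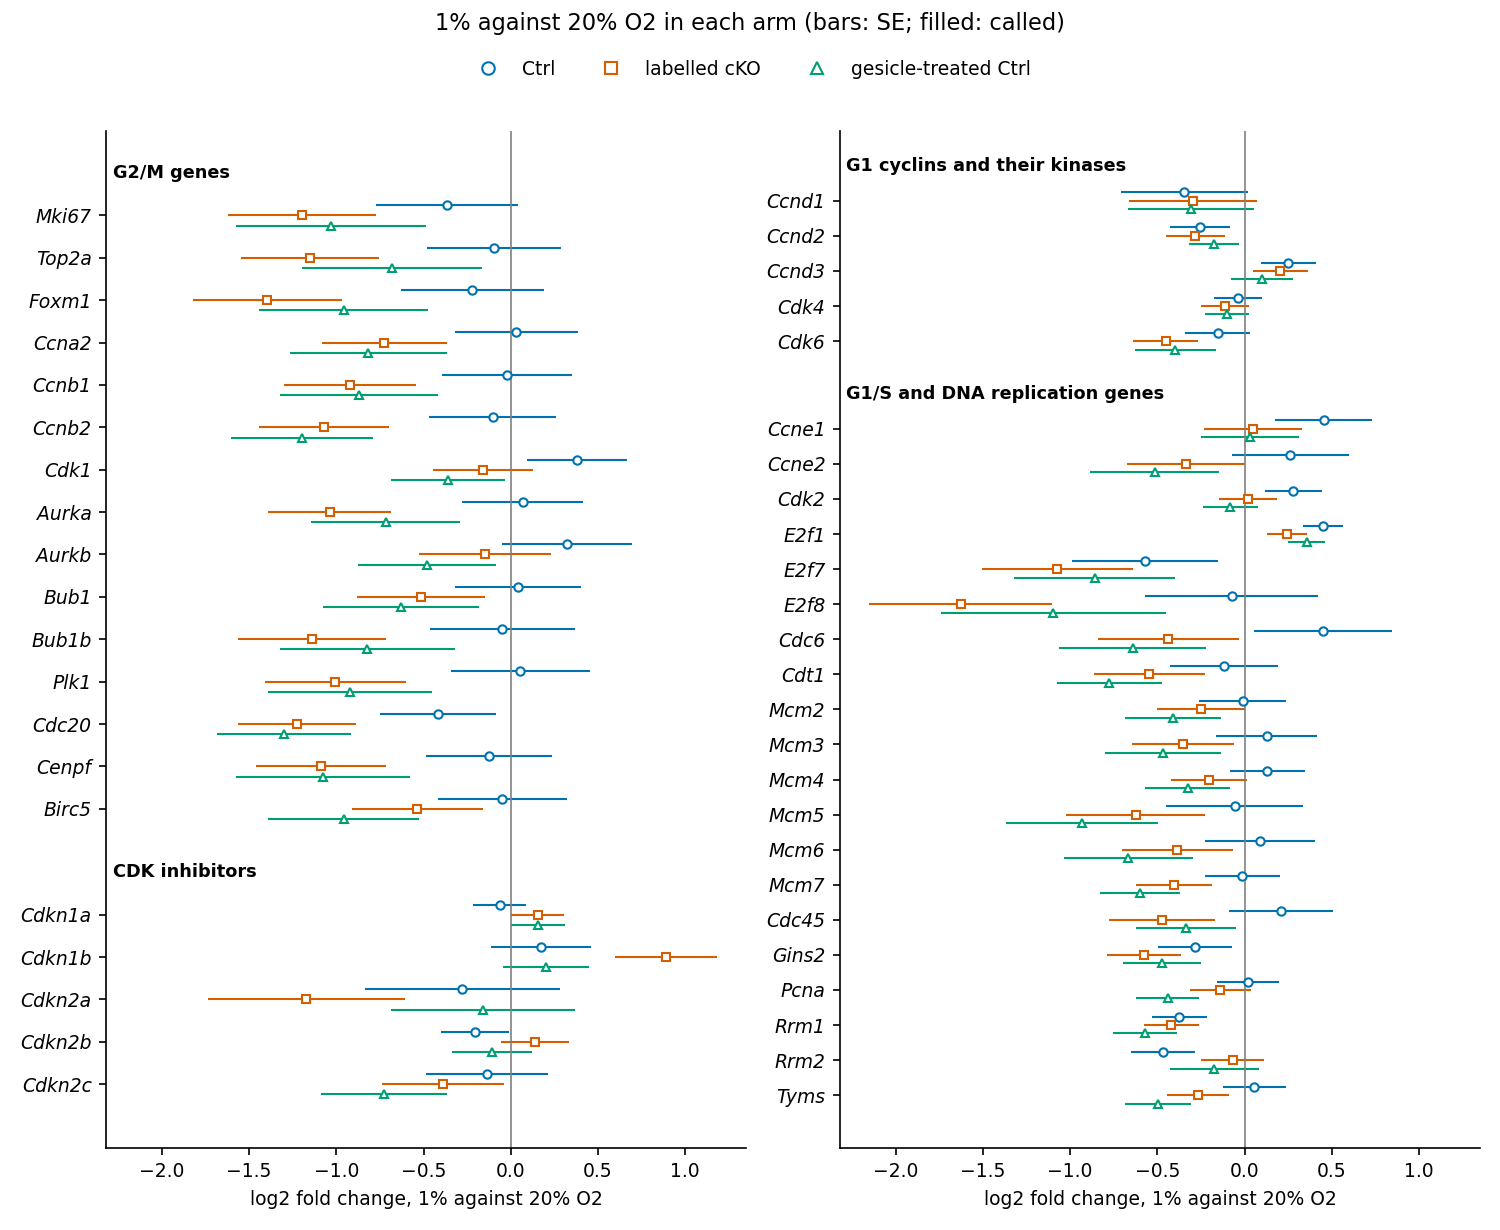
The x axis gives the log2 fold change of 1% against 20% O2 for each of the 45 members, with bars of 1 SE, for Ctrl TFs (circles), TFs labelled cKO (squares) and gesicle-treated Ctrl TFs (triangles), and filled symbols would mark called genes. No symbol is filled, and the G2/M genes of the last 2 arms all lie left of 0.

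Averaged over the 3 arms, 4 members fell in 1% O2 and 0 rose. They were *Cdc20*, *Ccnb2* (cyclin B2), *Foxm1* and *E2f7*, a repressor E2F of the G1/S class. That is 4 of 45 called lower, or 3 of the 15 G2/M genes, against 5.13% of all 16174 genes tested (10.5% in either direction). The G2/M median was -0.63 (-0.02 over all genes tested), with 15 of 15 below 0, against 52.8% of all genes. The fit treated gesicle-treated and untreated Ctrl libraries of one replicate number as separate samples. They correlated by number, at 0.35 to 0.46 in 20% O2 and 0.19 to 0.28 in 1% O2. The SEs and adjusted p-values do not allow for this.

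*Cdc20* measured 33.5, 45.1 and 18.7 CPM in Ctrl 20% O2 and 36.1, 22.2 and 14.1 in Ctrl 1% O2. It measured 41.5, 42.7 and 53.3 in cKO 20% O2 and 16.9, 22.2 and 19.1 in cKO 1% O2. With gesicles it measured 48.7, 79.2 and 33.5 in 20% O2 and 30.2, 21.7 and 13.6 in 1% O2. The O2 groups did not overlap in the cKO and gesicle arms and overlapped in Ctrl, where replicate 1 was the higher in 1% O2. On average over the arms the difference was -0.99 on the log2 scale (SE 0.22, edgeR adjusted p = 0.00474). *Cdc20* was called under each alternative and without each library in turn. It shares 53 exon bases with *Elovl1* on the opposite strand, and use of strand in the counting is not given in the sources used here.

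*Ccnb2*, which activates CDK1, measured 15.8, 25.3 and 10.6 CPM in Ctrl 20% O2 and 23.9, 15.6 and 8.3 in Ctrl 1% O2. In cKO it measured 18.6, 21.2 and 26.8 in 20% O2 and 8.3, 11.2 and 11.8 in 1% O2, and with gesicles 28.7, 40.2 and 15.4 and then 17.1, 11.7 and 8.0. The cKO groups alone were apart. Its difference averaged over the arms was -0.79 (SE 0.24, edgeR adjusted p = 0.0224).

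*Foxm1* measured 13.3, 16.98 and 8.6 CPM in Ctrl 20% O2 and 13.8, 14.7 and 4.7 in Ctrl 1% O2. In cKO it measured 17.6, 7.3 and 14.8 in 20% O2 and 4.7, 5.2 and 5.0 in 1% O2, where the 3 libraries lay closer together than in any other group. With gesicles it measured 12.2, 28.5 and 13.75 in 20% O2 and 14.7, 9.2 and 4.15 in 1% O2, which overlapped, with replicate 1 the higher in 1% O2. Its difference averaged over the arms was -0.86 (SE 0.28, edgeR adjusted p = 0.0354). *E2f7* had low levels, from 1.56 to 11.1 CPM, and its groups overlapped in each arm (averaged log2 fold change -0.84, SE 0.27, edgeR adjusted p = 0.0329).

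The count of 4 depended on single libraries. It was 14 without gesicle-treated Ctrl 1% O2 replicate 1, 9 without Ctrl 20% O2 replicate 3, 8 without Ctrl 1% O2 replicate 1 and 1 (*Cdc20*) without gesicle-treated Ctrl 20% O2 replicate 2. It was 2 (*Ccnb2* and *Cdc20*) without cKO 1% O2 replicate 1, cKO 20% O2 replicate 1, cKO 20% O2 replicate 3, Ctrl 1% O2 replicate 3, gesicle-treated Ctrl 1% O2 replicate 3 or Ctrl 20% O2 replicate 2. In all these cases with 1 or 2 calls, those of *Foxm1* and *E2f7* were lost. The call of *Foxm1* was lost in 11 of 18 such fits, also without cKO 1% O2 replicate 2 (edgeR adjusted p = 0.0518), cKO 1% O2 replicate 3 (0.0516), Ctrl 20% O2 replicate 1 (0.0535) or gesicle-treated Ctrl 1% O2 replicate 2 (0.0507), and that of *E2f7* in 8 of 18, also without gesicle-treated Ctrl 20% O2 replicate 3 (0.0525). With the replicate number as a block, 13 members were called, all lower, adding *Aurka*, *Bub1b*, *Ccnb1*, *Cenpf*, *E2f8*, *Mcm5*, *Mki67*, *Plk1* and *Top2a*. The numbers met the pairing criterion for Ctrl across O2 and for treated against untreated Ctrl, and not for the O2 levels of cKO or of gesicle-treated Ctrl. Averaged over the Ctrl and cKO arms alone, 1 member was called, *Cdc20*. DESeq2 called 7 members, adding *Cenpf*, *E2f8* and *Mki67*. Over all genes, the count of 1697 became 1492 to 2039 with a library left out. Under the other alternatives it ran from 1124 (Ctrl and cKO only) to 3980 (no fold minimum).

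**Figure D3:**
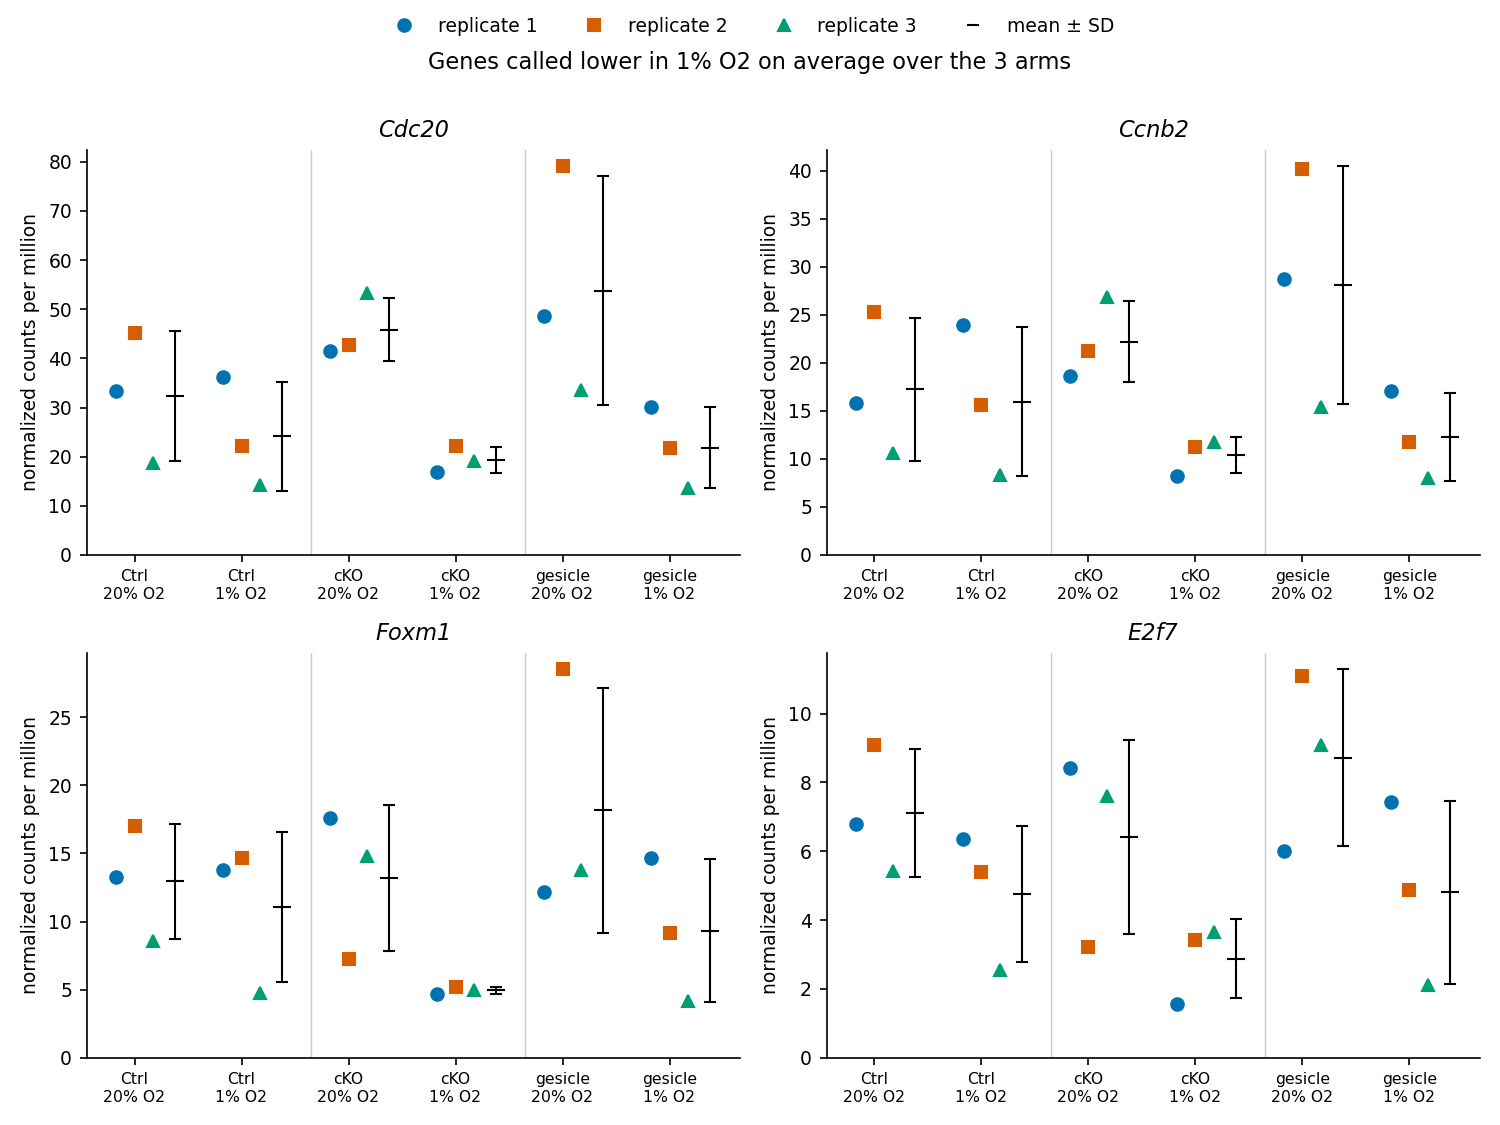
Each point is a library, with normalized CPM on the y axis from 0 and the group on the x axis, for the 4 members called lower in 1% O2 on average over the arms; bars give mean ± SD (n = 3). *Cdc20* in cKO lies between 41.5 and 53.3 CPM in 20% O2 and between 16.9 and 22.2 in 1% O2.

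Promoter sequences from RefSeq (GRCm38.p6, 250 bases before to 50 bases after a gene's start) were searched for motifs of the cell cycle on both strands, because members that move together may carry the same letters. Windows were matched by symbol for 12 of the 15 G2/M genes, 17 of the 20 G1/S genes, 3 of the 5 G1 genes and 5 of the 5 inhibitors. *Foxm1*, *Ccna2*, *Aurkb*, *Ccne2*, *Mcm4*, *Gins2*, *Ccnd1* and *Ccnd2* had no entry. The CHR (tttgaa or ttcgaa) was found in 10 of the 12 G2/M windows (83.3%), 22.2% of the G1/S windows and 19.2% of all 32851 windows of the table. The CCAAT box (ccaat) was found in 91.7% of the G2/M windows and 37.4% of all windows. The E2F site (tttcccgc, tttcgcgc, tttgccgc or tttggcgc) showed the opposite distribution, at 8.33% of the G2/M windows, 44.4% of the G1/S windows and 2.26% of all. The HIF core (acgtg or gcgtg) was found in 75% of the G2/M windows, 61.1% of the G1/S windows and 43.8% of all. It was also in 75% of the windows of the G1 cyclins and their kinases (3 of 4) and of the inhibitors (6 of 8). These are matches of letters, not sites shown to be bound. The promoters of the called genes are shown for the layout of these motifs, 200 bases before to 30 bases after the start, 5′ to 3′ on the gene's strand, with the CHR, CCAAT box and E2F letters in capitals (on either strand). They lie at chr4:118437314-118437543 (minus strand, *Cdc20*), chr9:70421525-70421754 (minus strand, *Ccnb2*), chr10:110745239-110745468 (plus strand, *E2f7*) and chr12:24708054-24708283 (plus strand, *Rrm2*, described with the genotype comparison).
Cdc20: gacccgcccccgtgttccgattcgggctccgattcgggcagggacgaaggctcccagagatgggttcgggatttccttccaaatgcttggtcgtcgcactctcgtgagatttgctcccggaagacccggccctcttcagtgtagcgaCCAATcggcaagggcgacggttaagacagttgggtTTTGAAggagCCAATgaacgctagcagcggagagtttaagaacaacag
Ccnb2: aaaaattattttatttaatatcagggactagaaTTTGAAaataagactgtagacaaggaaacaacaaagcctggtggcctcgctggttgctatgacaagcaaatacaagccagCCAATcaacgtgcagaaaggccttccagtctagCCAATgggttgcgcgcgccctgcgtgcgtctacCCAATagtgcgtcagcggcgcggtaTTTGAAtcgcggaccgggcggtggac
E2f7: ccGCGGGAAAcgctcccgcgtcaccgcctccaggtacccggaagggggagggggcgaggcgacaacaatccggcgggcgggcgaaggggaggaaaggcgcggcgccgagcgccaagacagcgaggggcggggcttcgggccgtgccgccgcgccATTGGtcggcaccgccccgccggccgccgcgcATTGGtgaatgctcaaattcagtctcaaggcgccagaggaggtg
Rrm2: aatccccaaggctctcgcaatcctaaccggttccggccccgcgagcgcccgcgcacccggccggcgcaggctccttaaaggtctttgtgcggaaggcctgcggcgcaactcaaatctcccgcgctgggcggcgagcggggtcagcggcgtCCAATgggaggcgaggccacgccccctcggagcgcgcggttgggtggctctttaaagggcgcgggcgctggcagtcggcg
The mitotic genes *Cdc20* and *Ccnb2* hold both CHR letters and more than 1 CCAAT box. The *E2f7* and *Rrm2* windows hold no CHR letters, and the E2F letters appear in the *E2f7* window alone among these 4.

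Other genes of the same phases, from lists that hold no member, had lower medians for mitosis than for replication. Averaged over the arms, 10 of 44 other G2 and mitosis genes fell in 1% O2 and 0 rose, against 5.13% of all genes called lower, with a list median of -0.55. The lowest were *Aspm*, a spindle pole protein (-1.22, edgeR adjusted p = 0.00727), *Cenpe*, a kinetochore motor (-0.95, edgeR adjusted p = 0.0307), and *Kif4*, a chromosome motor (-0.95, edgeR adjusted p = 0.0261). Of 40 other replication genes, 2 fell, namely *Pole*, the catalytic subunit of polymerase epsilon (-1.27, edgeR adjusted p = 0.0253), and *Chaf1b* of chromatin assembly factor 1 (-0.63, edgeR adjusted p = 0.0497), with a list median of -0.20. That count of 2 of 40 is near the 5.13% of all genes called lower. Of 20 RB, E2F and DREAM regulators, 0 were called, and of 15 p53 target genes 1 fell, *Plk2* (-0.66, edgeR adjusted p = 6.9e-04).

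Within single arms these lists gave few calls. Of all genes, edgeR called 1.88% in Ctrl, 2.1% in cKO and 2.41% with gesicles. In Ctrl TFs the only call was *Ccng2*, the atypical cyclin G2, which rose (log2 fold change 0.68, edgeR adjusted p = 0.0148). In TFs labelled cKO, *Lmnb1*, the B-type lamin (-1.04, edgeR adjusted p = 0.0469), and *Plk3* of the p53 list (-0.60, edgeR adjusted p = 0.0453) fell. In gesicle-treated Ctrl TFs, *Prim2*, a primase subunit (-0.72, edgeR adjusted p = 0.0497), and *Plk2* (-0.93, edgeR adjusted p = 0.0180) fell. The median of the other G2 and mitosis genes was 7.4e-05 in Ctrl, -0.82 in cKO and -0.82 with gesicles.

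G1/S genes moved less than G2/M genes and not all in one direction. Averaged over the arms, their median was -0.24, with 17 of 20 below 0. Without the fold threshold of 1.5, adjusted p-values under 0.05 were found for 2 of the 45 members with higher levels in 1% O2, against 12.9% of all genes, and 7 with lower levels, against 11.7%. The G1/S genes added in this way were *E2f1*, *Rrm1* and *Gins2*. *E2f1* was higher (0.34, SE 0.060, edgeR adjusted p = 8.6e-04). It measured 48.9, 48.2 and 50.8 CPM in Ctrl 20% O2 and 71.1, 58.7 and 71.0 in Ctrl 1% O2. It was the 1 member of 45 higher in Ctrl 1% O2 without overlap, against 16.6% of all genes, while *Ccnd2* and *Rrm2* were the 2 that were lower without overlap, against 13.4%. *Rrm1* (-0.46, SE 0.11, edgeR adjusted p = 0.00575) and *Gins2*, of the replicative helicase complex (-0.45, SE 0.13, edgeR adjusted p = 0.0200), were lower. *Gins2* shares 2758 exon bases with *Gse1* on the opposite strand, so its counts are uncertain.

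The 6 MCM genes encode the subunits of the replicative helicase. Their averaged log2 fold changes ran from -0.54 for *Mcm5* to -0.14 for *Mcm4*. Of the 6, 0 passed the adjusted threshold, against 12.9% of all genes higher and 11.7% lower without the fold minimum. *Cdc6* and *Cdt1*, which load that helicase on origins, were at -0.22 and -0.48, and *Cdc45*, which activates it, at -0.20. *Pcna*, the polymerase clamp, was at -0.19 and *Tyms*, thymidylate synthase, at -0.24. *Ccne1* (cyclin E1) at 0.17 and *Cdk2* at 0.07 were, with *E2f1*, the members of the class above 0, while *Ccne2* (cyclin E2) was at -0.20. *Ccne2*, *Mcm7* and *Cdc45* share exon bases with the opposite-strand genes *Ints8*, *Cops6* and *Ufd1*, each with more counts than the member.

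The remaining G2/M genes give the range of the class. Averaged over the arms, *Mki67* (-0.87, edgeR adjusted p = 0.0561) and *Cenpf* (-0.77, edgeR adjusted p = 0.0644) stood nearest to the threshold without passing it. *Bub1b*, the checkpoint protein BUBR1, was at -0.68, *Top2a* at -0.65, *Plk1*, the polo-like kinase, at -0.63 and *Ccnb1* (cyclin B1) at -0.61. *Aurka*, the spindle pole kinase, was at -0.57, *Birc5* (survivin) at -0.52, *Ccna2* (cyclin A2) at -0.51 and *Bub1* at -0.37. *Ccna2* shares 510 exon bases with the opposite-strand gene *Exosc9*. *Aurkb* (-0.11) and *Cdk1* (-0.05) lay closest to 0. *Cdk1* measured 27.7, 37.4 and 39.8 CPM in cKO 20% O2 and 36.7, 27.2 and 30.1 in cKO 1% O2, so its groups overlapped where those of its activators *Ccnb1* and *Ccnb2* did not.

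The second question was how TFs labelled cKO differed from Ctrl TFs. *Rrm2* was the one member that separated the genotypes. It measured 569, 376 and 329 CPM in Ctrl 20% O2 and 149, 162 and 193 in cKO 20% O2. In 1% O2 it measured 304, 317 and 296 in Ctrl and 147, 174 and 156 in cKO. With gesicles, Ctrl TFs measured 533, 412 and 207 in 20% O2 and 369.6, 345.5 and 307 in 1% O2. All 6 libraries labelled cKO, between 147 and 193 CPM, thus lay below all 12 Ctrl libraries, treated or not, between 207 and 569. No other member had this separation in either direction.

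*Rrm2* (ENSMUSG00000020649, chromosome 12 from 24708241 to 24714146 on GRCm38) fell by 1.34 on the log2 scale in TFs labelled cKO in 20% O2 (SE 0.18, edgeR adjusted p = 0.0233). It was the 1 of 45 members called, against 0.347% of all genes, and 0.202% called lower. At an unadjusted p under 0.05, 5 further members were higher, against 6.47% of all genes, and *Rrm2* alone was lower, against 7.82%. In 1% O2 the difference was -0.94 (SE 0.18, edgeR adjusted p = 0.112) and 0 of 45 members were called, against 0.0379% of all genes. At an unadjusted p under 0.05, 2 members were lower in 1% O2, against 11.3% of all genes, and 1 was higher, against 5.51%. DESeq2 called 1 member, *Rrm2*, and 285 genes in all. Averaged over both O2 levels *Rrm2* fell by 1.14 on the log2 scale (SE 0.13, edgeR adjusted p = 0.00207), the only 1 of 45 members called, against 3.78% of all genes. With the libraries of each replicate number summed it was -1.17 (edgeR adjusted p = 0.0374).

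In 20% O2 the call for *Rrm2* was lost without Ctrl 20% O2 replicate 1 (-1.08, edgeR adjusted p = 0.0559) or without cKO 20% O2 replicate 3 (-1.46, edgeR adjusted p = 0.0770). The averaged call held without each library in turn. Summed markers of some lists also differed between the genotypes. In 20% O2, the 4 pericyte and smooth muscle markers summed to 93.2 to 158.5 CPM in Ctrl and 35.7 to 47.0 in cKO, and in 1% O2 to 46.2 to 91.3 and 29.45 to 48.6, with none of the 4 at 0. The 6 skeletal muscle markers summed to 24.4 to 47.7 and 12.4 to 17.95 in 20% O2 and to 26.5 to 35.7 and 18.6 to 24.1 in 1% O2. Of these, *Pax7* and *Ckm* were at 0 throughout, *Myod1* in 16 and *Myog* in 17 of 18 libraries. The sum was thus nearly all *Acta1* (median 22.7 CPM) and *Des* (3.03). The 9 tendon fibroblast markers summed to 11060 to 13240 in Ctrl and 5253 to 10290 in cKO in 20% O2, without overlap, and to 5779 to 13380 and 5579 to 9396 in 1% O2, with overlap. The part of these differences in the level of *Rrm2* was not tested.

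The partners of *Rrm2* did not separate in this way. *Rrm1* measured 198, 177 and 152 CPM in Ctrl 20% O2 and 168, 119 and 156 in cKO 20% O2, which overlapped (log2 fold change -0.26). *Tyms*, which makes thymidylate, measured 12.1, 14.6 and 9.9 in Ctrl 20% O2 and 15.8, 18.5 and 18.2 in cKO 20% O2, higher without overlap but not called (0.52, SE 0.18, edgeR adjusted p = 0.254). *Pcna* measured 42.5, 49.8 and 40.6 in Ctrl and 50.4, 66.3 and 54.5 in cKO in 20% O2, also without overlap (0.36). Over the 45 members, 5 were higher in cKO 20% O2 without overlap, against 10.8% of all genes, and 1 lower, against 10.3%. *Rrm2b*, the p53-inducible small subunit, is no member and was at -0.32 in 20% O2 and -0.10 in 1% O2, with overlapping groups.

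**Figure D4:**
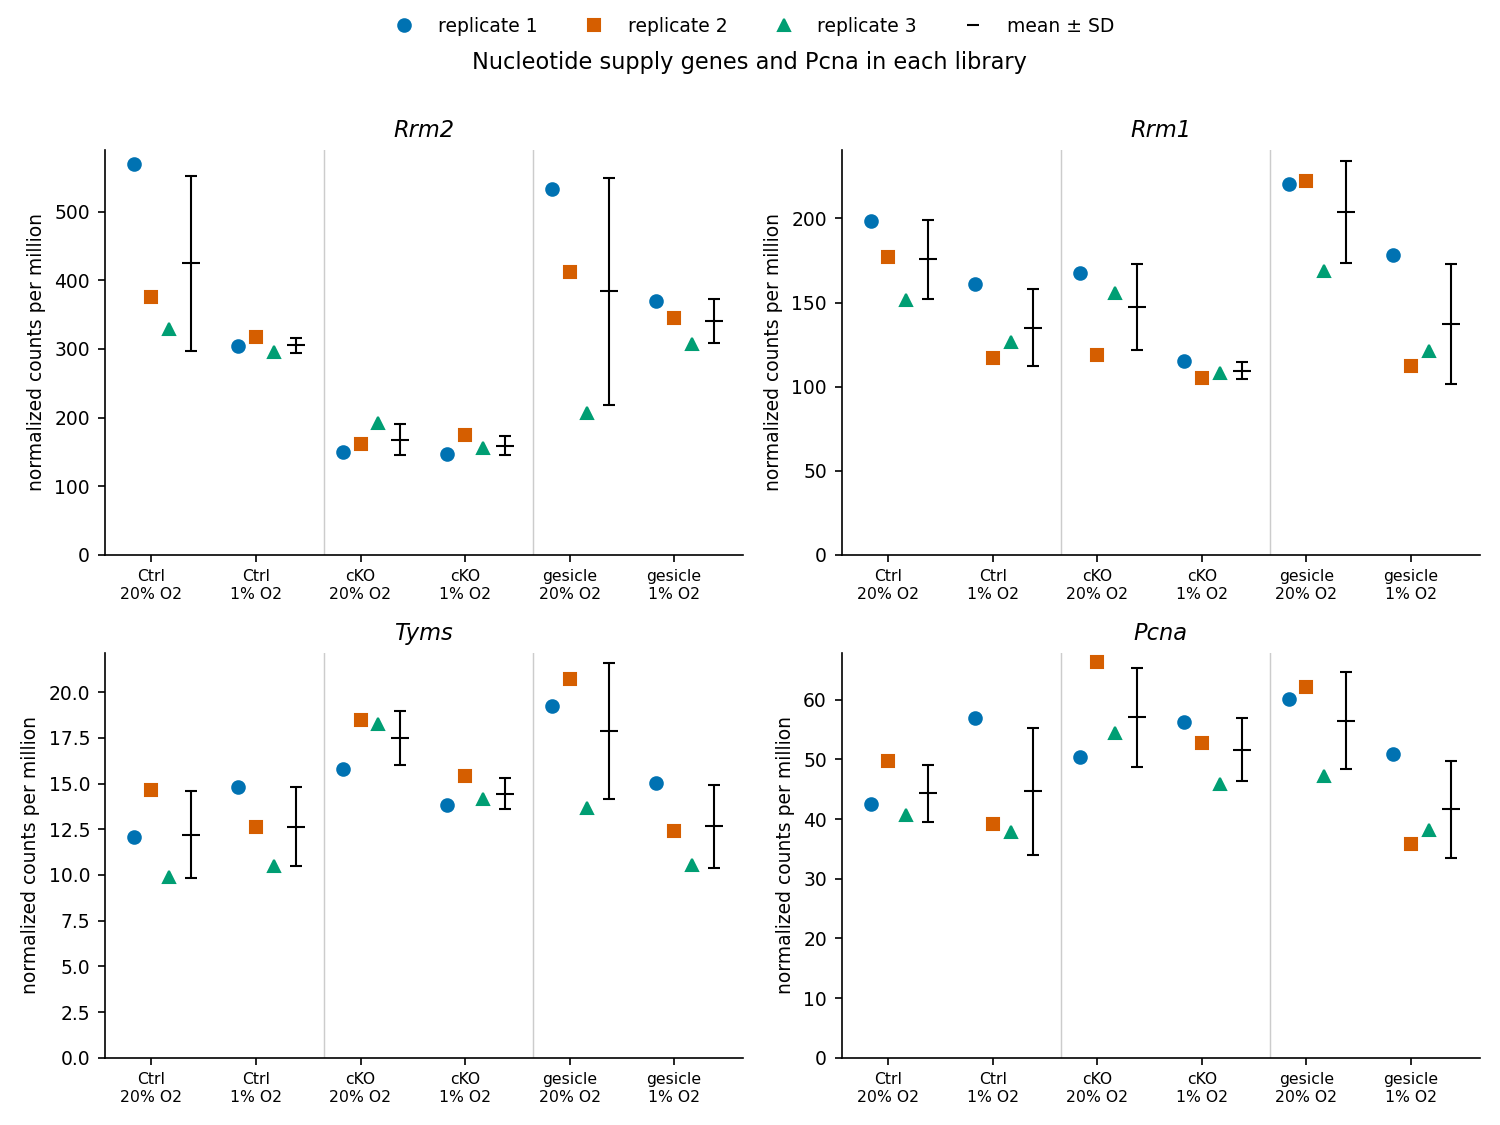
Each point is a library, with normalized CPM on the y axis from 0, for both ribonucleotide reductase subunits, *Tyms* and *Pcna* in the 6 groups; bars give mean ± SD (n = 3). *Rrm2* lies between 147 and 193 CPM in all 6 cKO libraries and between 207 and 569 in the 12 others, while the other 3 genes overlap between genotypes over both O2 levels.

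For the G2/M genes, log2 fold changes of cKO against Ctrl were above 0 in 20% O2 and below 0 in 1% O2, and no single gene passed. In 20% O2, 15 of 15 G2/M genes were above 0 where 46.4% of all genes were below 0, with a median of 0.41 (0.03 over all genes tested), from 0.02 for *Foxm1* to 0.50 for *Plk1*. In 1% O2, 15 of 15 were below 0 against 49.8% of all genes, with a median of -0.52 (0.003 over all genes tested), from -1.16 for *Foxm1* to -0.01 for *Aurkb*. G1/S genes had medians of 0.17 in 20% O2 and -0.30 in 1% O2, and the G1 cyclins and their kinases, at 0.31 and 0.23, had the same sign at both levels. The genotypes overlapped at least in part for all 15 G2/M genes at both O2 levels. These 2 comparisons share no library with each other, but share their Ctrl and cKO libraries with the O2 comparisons above.

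The difference of the O2 response between cKO and Ctrl TFs was tested directly. The median over the G2/M genes was -0.90 (-0.04 over all genes tested), with 15 of 15 below 0, against 56.5% of all genes. edgeR called 0 of 45 members, against 0% of all genes, and DESeq2 also called 0. At an unadjusted p under 0.05 there was 1, which was lower as for 1.22% of all genes, *Aurka* (-1.11, SE 0.50, edgeR adjusted p = 1.00). A different O2 response of these genes in the 2 genotypes was therefore not detectable with 3 libraries per group.

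**Figure D5:**
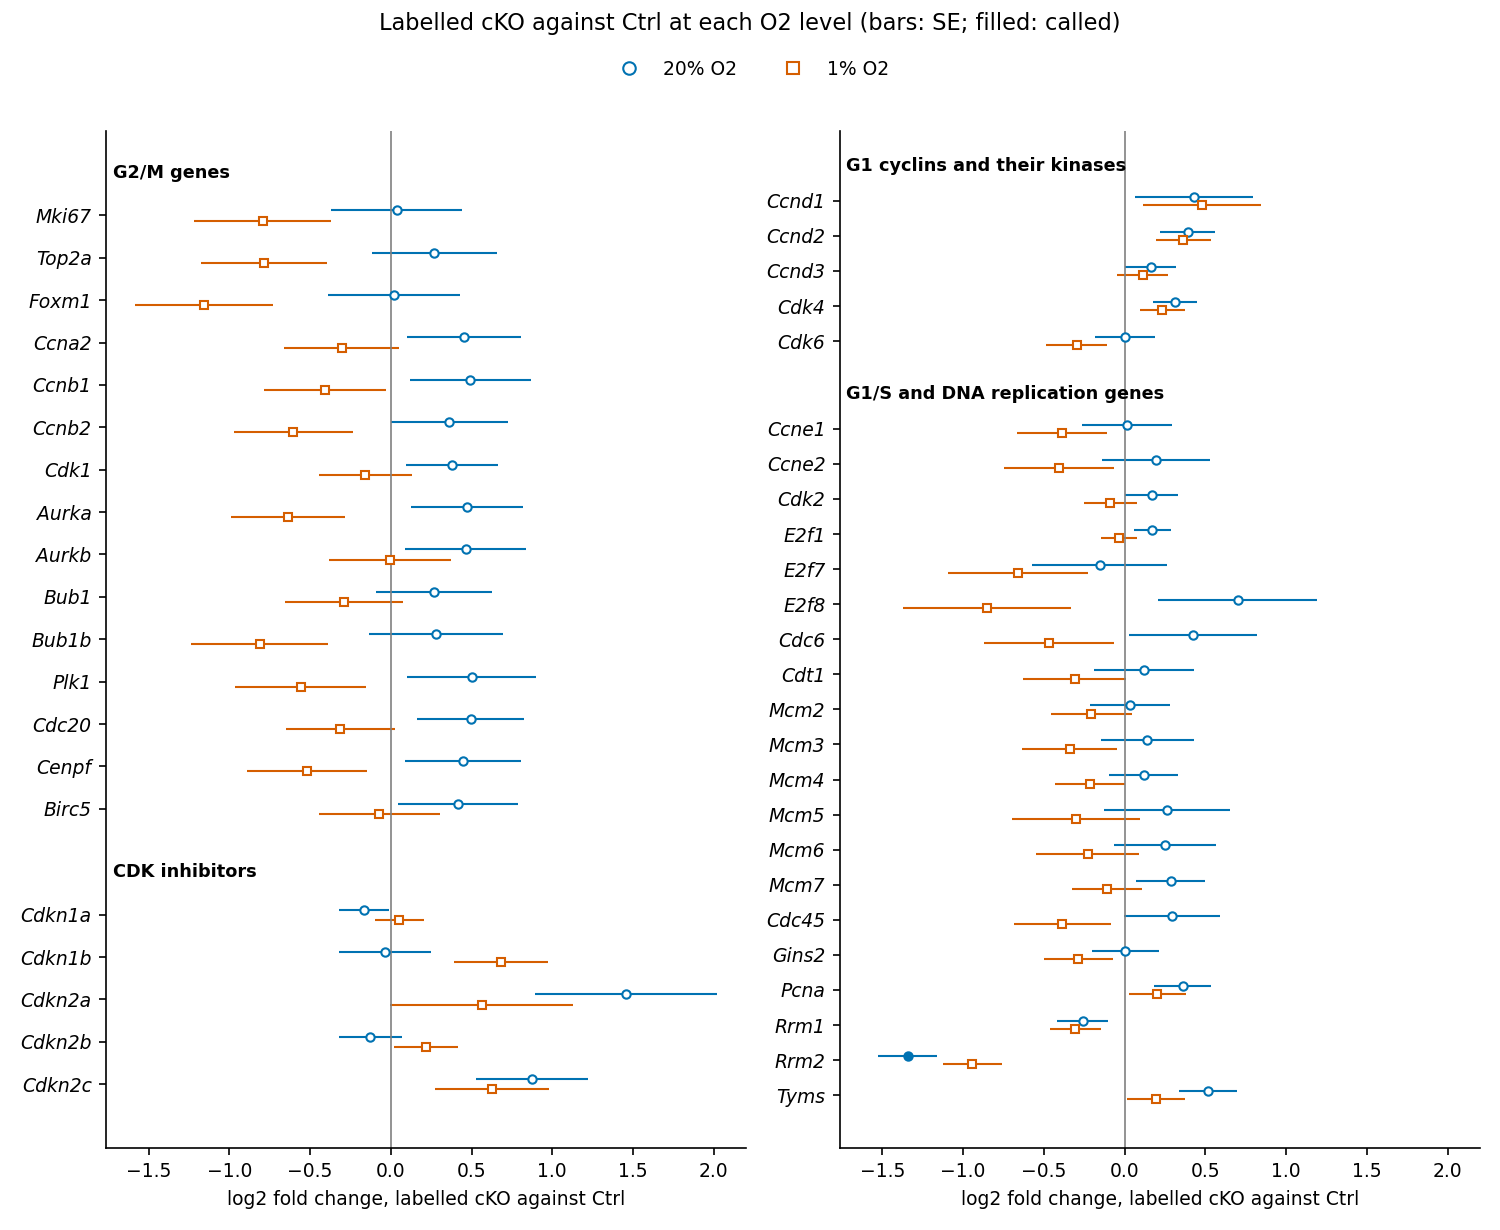
The x axis gives the log2 fold change of TFs labelled cKO against Ctrl TFs for each member, with bars of 1 SE, in 20% O2 (circles) and 1% O2 (squares), and filled symbols mark called genes. *Rrm2* in 20% O2 is the only filled symbol, and the G2/M genes lie right of 0 in 20% O2 and left of 0 in 1% O2.

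Among the 4 other cell cycle lists, 0 genes were called in cKO against Ctrl TFs at either O2 level. Of all genes, 0.347% were called in 20% O2 and 0.0379% in 1% O2. The smallest unadjusted p-values in 20% O2 were those of *Rfc3*, a clamp loader subunit (log2 fold change 0.53), *Lmnb1* (0.74), *Ccng2* (0.51) and *Sesn1*, a p53 target (0.38). In 1% O2 they were those of *Chaf1a* (-0.74), *Anln*, the cytokinesis protein anillin (-0.98), *E2f3* (-0.48) and *Btg2*, an antiproliferative p53 target (0.45). Averaged over O2, 0 were called, against 3.78% of all genes, and *Ccng2* passed on adjusted p and not on fold (0.35, edgeR adjusted p = 0.0421). The smallest unadjusted p-values of the other 3 lists were those of *Rfc3* (0.41), *Cks1b*, a CDK subunit (0.34), and *Sesn1* (0.28). For the difference of the O2 response they were those of *Chaf1a* (-0.85), *Lmnb1* (-0.87), *Mybl2*, the B-MYB factor of the mitotic genes (-1.16), and *Btg2* (0.44), again with 0 called.

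The third comparison was of gesicle-treated with untreated Ctrl TFs. In 20% O2, 15 of 15 G2/M genes were higher with gesicles, where 48.9% of all genes were below 0, with a median of 0.62 (0.01 over all genes tested), and 19 of 20 G1/S genes with a median of 0.36. The class mean of the G2/M genes was higher by 0.29, 0.75 and 0.72 in replicates 1, 2 and 3. In all 3 pairs of one replicate number, 12 of the 15 G2/M genes and 17 of the 20 G1/S genes were higher, against 21.5% of all genes. The groups overlapped for all 15 G2/M genes, and edgeR called 0 of 45 members, against 0.0247% of all genes. At an unadjusted p under 0.05 there were 2 higher, against 2.36% of all genes, *Tyms* (0.55) and *Cdt1* (0.68), and DESeq2 called 0.

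In 1% O2, 15 of 15 G2/M genes were lower with gesicles, against 52.2% of all genes. The median was -0.19 (-0.01 over all genes tested), from -0.38 for *Ccnb2* to -0.06 for *Top2a*. edgeR called 0 of 45 members, against 0% of all genes, with 0 at an unadjusted p under 0.05 and 0 with DESeq2. The difference of the O2 response between treated and untreated Ctrl TFs had a G2/M median of -0.80, with 0 of 45 members called by edgeR, against 0% of all genes, 0 at an unadjusted p under 0.05 and 0 with DESeq2. These comparisons share the gesicle-treated or the untreated libraries with the O2 comparisons. Among the other lists 0 genes were called. The smallest unadjusted p-values in 20% O2 were those of *Rfc3* (0.49), *Gtse1*, a G2 and S phase protein (0.42), *Lin9* of the DREAM and MYB complexes (0.57) and *Plk2* (0.44). In 1% O2 they were those of *Pola2*, a polymerase alpha subunit (-0.25), *Pttg1* (securin, 0.40), *Lin52* (0.16) and *Plk3* (0.39), and for the difference of the O2 response those of *Pola2* (-0.48), the checkpoint kinase *Ttk* (-1.24), *E2f2* (-1.17) and *Plk2* (-0.40).

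The 5 CDK inhibitors had 0 calls by edgeR in any comparison with all its libraries, against 0% to 10.5% of all genes. With 5 genes, a count of 0 does not set the class apart from that share. DESeq2 called *Cdkn1b* for O2 in cKO and *Cdkn2a* and *Cdkn2c* for the averaged genotype difference. In cKO against Ctrl TFs in 1% O2, 5 of 5 were above 0, where 49.8% of all genes were below 0. The median was 0.56, from 0.05 to 0.68, and 1 of the 5 had an unadjusted p under 0.05. In 20% O2, 2 of 5 were above 0 with a median of -0.04, where 46.4% of all genes were below 0. For the difference of the O2 response between cKO and Ctrl TFs their median was 0.22, with 3 of 5 above 0. *Cdkn1a* lay between 535 and 822 CPM over the 18 libraries, a range of 1.54 times, the narrowest of the 45 members. Its averaged log2 fold change was 0.08 for 1% against 20% O2 (edgeR adjusted p = 0.567) and -0.06 for cKO against Ctrl TFs (edgeR adjusted p = 0.747). *Cdkn2b* lay between 131 and 254 CPM and was at -0.06 and 0.05 in the same comparisons.

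*Cdkn2c* (p18) measured 7.2, 15.6 and 6.6 CPM in Ctrl 20% O2 and 15.9, 21.6 and 16.4 in cKO 20% O2, and 10.5, 11.1 and 4.9 and then 14.9, 13.8 and 12.4 in 1% O2. The cKO libraries were the higher without overlap at both O2 levels. Of all genes, 10.8% were so in 20% O2 and 12.1% in 1% O2. In 20% O2 the gap was narrow, from 15.6 to 15.9 CPM. Gesicle-treated Ctrl TFs measured 10.5, 20.2 and 9.9 in 20% O2, which overlapped cKO, and 9.1, 9.3 and 6.1 in 1% O2. The difference averaged over both O2 levels was 0.75 on the log2 scale (SE 0.25, edgeR adjusted p = 0.0836), which edgeR did not call, whereas DESeq2 did. Without Ctrl 20% O2 replicate 2 edgeR called 2 members for the averaged genotype difference, *Rrm2* and *Cdkn2c*.

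*Cdkn2a*, the locus of p16 and p19ARF, rested on 1 library. It measured 43.7 CPM in cKO 20% O2 replicate 2, the library that stood apart, and between 4.75 and 14.0 CPM in the other 17. The same library held the highest *Ccnd1* (cyclin D1) level, 579 CPM, where replicates 1 and 3 had 207 and 164. *Cdkn1b* (p27) stood between 2.22 and 3.74 CPM except for 7.1 in cKO 1% O2 replicate 1, the library with the fewest counts. Its averaged log2 fold change with 1% O2 was 0.42 (SE 0.14, edgeR adjusted p = 0.0441), under the fold threshold.

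The 5 G1 cyclins and their kinases had 0 calls by edgeR in any comparison with all its libraries, against 0% to 10.5% of all genes. With 5 genes, that count does not set the class apart. In 1% against 20% O2 their averaged log2 fold changes ran from -0.34 for *Cdk6* to 0.18 for *Ccnd3* (cyclin D3). *Ccnd2* was lower in 1% O2 in each arm, at -0.26, -0.28 and -0.18 in Ctrl, cKO and gesicle-treated TFs, and passed on adjusted p and not on fold (-0.24, SE 0.083, edgeR adjusted p = 0.0448). In cKO against Ctrl TFs in 20% O2 it was at 0.39 and *Cdk4*, the kinase it activates, at 0.31, with unadjusted p-values of 0.0402 and 0.0430. Both were highest in cKO 20% O2 replicate 2, the library that stood apart. *Ccnd2* measured 1203, 1755 and 1347 CPM there in replicates 1, 2 and 3, and *Cdk4* 279.5, 394.6 and 314.5. The *Cdk4* groups overlapped, with Ctrl at 283.9, 270.7 and 240.3. *Cdk4*, *Ccnd1* and *Ccnd3* share exon bases with the opposite-strand genes *Tspan31*, *LTO1* and *Bysl*, so that small differences in them are uncertain.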

How the data were processed

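Poly-A RNA of 18 libraries of mouse tail TFs was sequenced as paired reads of 151 bases. Reads were mapped by the authors with STAR to GRCm38 and counted with RSEM 1.3.3 (FastQC 0.11.8 for quality, per the submitters' processing notes), and the deposited values are estimated counts per gene, given as whole numbers without normalization. Samples were grouped by the labels' genotype, O2 level and gesicle treatment.

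From these counts, edgeR 4.0.16 (TMM, filterByExpr, quasi-likelihood test) was fitted in R 4.3.3 to the 12 Ctrl and cKO libraries (15850 genes) and to all 18 (16174 genes) for gesicle comparisons and for O2 averaged over the arms. A gene was called at a Benjamini-Hochberg adjusted p under 0.05 over all genes tested and a fold change of at least 1.5. CPM values come from the fit of 18. A floor of 3 counts and the total set the depth limit of a library and cover counting error only. Averaged comparisons treat the libraries of one replicate number as separate samples, and p-values measure the spread between 3 libraries a group, which the methods describe as from 3 mice.

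Libraries with the same number were taken as paired where all correlations of their deviations from the group means exceeded 0.1. This held for Ctrl in 20% and 1% O2 (0.27 to 0.46). It also held for gesicle-treated and untreated Ctrl in 20% (0.35 to 0.46) and 1% O2 (0.19 to 0.28). The other pairs of groups did not meet it. For the O2 levels of cKO the correlations were 0.096, 0.092 and 0.37 in replicates 1, 2 and 3. Missing this cutoff does not show that the numbers are unpaired.

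The alternatives were DESeq2 1.42.0, RLE scaling, no low-count filter, a replicate block, only the groups compared, all 18 libraries, no fold change minimum, *Xist* as a covariate and each library left out. Thinned counts, summed libraries and the average over Ctrl and cKO were added after seeing the data. Only the edgeR fit was tested on simulated data, for the O2 comparison in Ctrl TFs. Positions and exon lengths are from GENCODE M21 (GRCm38).

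The members and lists were chosen with earlier results of these data known. All 45 members are named, with *Hif1a* and Cre as label checks, and from each other list up to 3 highest and 3 lowest called genes per comparison or, with 0 called, the gene with the smallest p. *Rrm2b*, *Acta1*, *Des*, *Myod1*, *Myog*, *Lyz2*, *Sox9* and the markers at 0 were named after their values were seen.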

Additional observations from a re-analysis of the deposited data

Results flagged for a closer look

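Reads of reporter sequences, which no comparison used, appeared in some groups. The libraries labelled cKO held 14 eGFP counts in all, found in 5 of the 6 at 0 to 5 per library, against 0 in the 12 others. The gesicle-treated libraries held 8 tdTomato counts in all, in 5 of the 6 at 0 to 3 per library, against 0 in the 12 others. Both are whole-library totals near the floor of 3 counts per library. Groups of 3 libraries were too small for a test of single outlying libraries, and no member passed a test of a difference between the O2 responses of 2 arms.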

How the results depend on the processing

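Results are counts of members called, which cannot reverse. Each member called in a main fit kept the sign of its log2 fold change under every alternative. For 1% against 20% O2 in cKO TFs the count of 0 became 9 with DESeq2, 2 without a filter, 1 with only the groups compared and 0 to 3 with a library left out. In gesicle-treated TFs the count of 0 became 2 with DESeq2, 1 without a filter and 0 to 1 with a library left out. For O2 averaged over the arms the count of 4 became 1 over Ctrl and cKO only, 7 with DESeq2, 9 without a fold minimum and 1 to 14 with a library left out. For cKO against Ctrl in 20% O2 the count of 1 became 0 with only the groups compared and 0 to 1 with a library left out. In 1% O2 the count of 0 became 1 with DESeq2, without a filter and with *Xist* as a covariate, in each case *Rrm2*. Averaged over O2 the count of 1 became 3 with DESeq2 and without a filter (*Cdkn2a*, *Cdkn2c* and *Rrm2*), and 1 to 2 with a library left out. Counts in Ctrl TFs, for gesicle against untreated TFs and for both differences of the O2 response stayed at 0 under all alternatives run. With the replicate block, 4 members were called in cKO TFs (*Aurka*, *Cdc20*, *E2f8* and *Mki67*), 4 in gesicle-treated TFs (*Ccnb2*, *Cdc20*, *Mcm7* and *Rrm1*) and 13 averaged over the arms. In these comparisons the pairing criterion was not met for all libraries, which does not show that the numbers are unpaired. For the paired comparisons and the others the block changed no count of members. Over all genes, DESeq2 called 692 in place of 298 in Ctrl, 888 in place of 333 in cKO, 731 in place of 390 with gesicles, 434 in place of 55 and 285 in place of 6 for cKO against Ctrl in 20% and 1% O2, 1274 in place of 599 averaged, and 46 in place of 4 for gesicles in 20% O2. Only the groups compared gave 84, 120, 1, 0 and 1 for O2 in cKO, O2 with gesicles, genotype in 20% and 1% O2 and gesicles in 20% O2. Without a filter the counts were 511 for O2 in cKO, 281, 111 and 1190 for genotype in 20%, 1% and averaged O2, and 23 for gesicles in 20% O2. The block gave 774 for O2 with gesicles, 2 and 358 for genotype in 1% and averaged O2 and 2 for gesicles in 20% O2. *Xist* gave 15, 344 and 0 for genotype in 1% O2, genotype averaged and gesicles in 20% O2. All 18 libraries gave 87 and 14 for genotype in 20% and 1% O2, thinned counts 33 in 20% O2, summed libraries 25 averaged, Ctrl and cKO only 1124 and no fold minimum 3980 for O2 averaged. In place of 0 genes, DESeq2 gave 2 for the cKO difference of the O2 response and only the groups compared 1 for the gesicle difference. The cause of these changes was not tested. Thinned to the smallest total, 6857558 counts, the same 4 members were called for O2 averaged over the arms, and *Rrm2* in 20% O2 and averaged over O2.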
